A study of Mus musculus with 4 samples.

Results

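The genes described here are 10 C-type lectin receptors of myeloid cells, namely Clec4a1, Clec4a2, Clec4a3, Clec4b1, Clec4d, Clec4e, Clec4n, Clec7a, Clec12a and Clec1b. They were taken by name from a table of 18364 genes, and all 10 were in it. The table came from RNA-seq of large peritoneal macrophages (LPMs), the main resident macrophages of the mouse peritoneal cavity. It held 4 libraries, 2 labelled WT and 2 labelled Rxra-KO. Rxra encodes retinoid X receptor alpha, a nuclear receptor that acts as the partner of many others.

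Both groups were C57BL/6 mice of 8 weeks. The labels give the genotypes as wild type and Rxra-/-. The study names the sequenced WT mice Rxra fl/fl and the Rxra-KO mice LysM Cre+ Rxra fl/fl, so that both groups carried the floxed allele. Whether the sequenced mice were littermates is not given in the sources used here. Cre is then made from the Lyz2 locus, which is active in macrophages, other myeloid cells and neutrophils, so the deletion is not limited to LPMs. Cells were double-sorted before lysis, and the labels describe the result as nearly pure LPMs. The study's gate for resident macrophages was CD45+ B220- CD11b+ CD115+ with high F4/80 and low MHC class II, which leaves out B cells and SPMs, the latter being low in F4/80 and high in MHC class II. The labels give replicate numbers without saying which mice or how many entered a library, so the p-values below measure the spread between these libraries, which may be technical. A permutation test of 2 libraries against 2 cannot give a two-sided p below 0.333, and every p given here comes from a model that shares its spread across genes.

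C-type lectin receptors bind sugars and lipids on microbes and on dying cells. Clec7a (Dectin-1) binds fungal beta-glucan, Clec4n (Dectin-2) binds mannans, and Clec4e (Mincle) and Clec4d (MCL) form a complex that binds mycobacterial cord factor. Clec4n, Clec4e, Clec4d and the DCAR receptor Clec4b1 have short tails and pair with the adaptor Fcer1g, whereas Clec7a and the podoplanin receptor Clec1b (CLEC-2) carry a tyrosine motif of their own. Both routes reach the kinase Syk and, downstream of it in myeloid cells, the adaptor Card9 and NF-kB. Clec4a2 (DCIR) and Clec12a (MICL) carry inhibitory motifs that recruit phosphatases such as Ptpn6. Clec4a1 and Clec4a3 are close relatives of Clec4a2.

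In the RefSeq gene table all 10 genes lie on mouse chromosome 6. Clec4a1, Clec4a3, Clec4b1, Clec4a2, Clec4n, Clec4d and Clec4e follow each other in that order, with Clec4a4 and Clec4b2 between them. Clec12a, Clec1b and Clec7a lie farther along the chromosome with Clec12b, Clec9a, Clec1a and Olr1. The DCIR and DCAR genes are close relatives in sequence, so how well a read can be assigned to one of them bears on the values below. The first 60 bases of their coding sequences (GENCODE annotation of GRCm38) are shown lined up at the start codon. Capitals mark bases that differ from Clec4b1 at the same position, counted without gaps.
Clec4b1: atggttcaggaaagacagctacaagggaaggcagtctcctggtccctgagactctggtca
Clec4a1: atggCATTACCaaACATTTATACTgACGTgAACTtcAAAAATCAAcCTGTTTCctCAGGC
Clec4a2: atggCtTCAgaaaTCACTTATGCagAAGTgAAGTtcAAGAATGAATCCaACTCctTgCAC
Clec4a3: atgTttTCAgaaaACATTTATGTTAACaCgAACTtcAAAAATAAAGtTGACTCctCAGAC
Clec4b2: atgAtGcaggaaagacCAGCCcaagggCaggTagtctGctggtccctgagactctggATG
Clec4a1, Clec4a2 and Clec4a3 differed from Clec4b1 at 47, 42 and 44 of these 60 bases, and Clec4b2 at 13. The coding lengths differ (627 bases for Clec4b1, 786 for Clec4a2), so related bases need not lie at the same position. The window therefore cannot show whether reads from these ends fit a single gene. Farther along, Clec4b1 and Clec4a2 share an identical run of 82 bases, from base 399 to 480 of the Clec4b1 coding sequence and from 558 to 639 of that of Clec4a2. It is shown because a read that lies wholly within it fits both genes.
Clec4b1 and Clec4a2: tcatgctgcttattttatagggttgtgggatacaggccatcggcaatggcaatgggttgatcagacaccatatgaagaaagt
Over the whole coding sequence Clec4b1 was 80.0% identical to Clec4b2, 70.7% to Clec4n and 67.7% to Clec4a2, while Clec4d and Clec4e, neighbours that make one receptor complex, were 51.7% identical to each other. These percentages count gaps, which lowers them for genes of unlike length. Over aligned bases alone, Clec4b1 matched Clec4a2 at 532 of 627, Clec4b2 at 504 of 621 and Clec4n at 448 of 620, so Clec4a2 was then the closest. Of all stretches of 31 bases in its transcripts, 81.0% occurred in no other gene for Clec4b1 and 89.1% for Clec4a2. The other receptors ranged from 96.4% for Clec1b, whose annotated transcripts overlap those of Clec9a, to every such stretch for Clec4a1 and Clec4d. Clec4a2 overlaps a processed pseudogene, Gm44132. Values of Clec4b1, Clec4a2 and Clec1b are therefore less certain than the others.

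RefSeq promoters, from 250 bases before to 50 bases after the start of transcription (GRCm38.p6), were found for 9 of the 10 receptors. The bases GAGGAA, or TTCCTC on the other strand, are a core bound by PU.1, the transcription factor that macrophages depend on. These letters were in 6 of the 9 windows (Clec4a1, Clec4b1, Clec4d, Clec4e, Clec12a and Clec7a), against 28.3% of all 32851 promoters in the table. AGGTCA, the core element of nuclear receptors such as RXR, was in 0 of the 9 on either strand, against 16.3% of all promoters. TGANTCA, the AP-1 site, which reads alike on both strands, was in 2 of the 9 (Clec4a2 and Clec12a), against 7.8%. The windows of Clec4b1 and Clec4e are shown because these 2 receptors moved in opposite directions. GAGGAA and TTCCTC are in capitals, starting at positions -68 and -39 in Clec4b1 (chr6:123049712-123050011, plus strand) and at -123 and -56 in Clec4e (chr6:123289822-123290121, minus strand), where negative positions count bases before the start of transcription.
Clec4b1: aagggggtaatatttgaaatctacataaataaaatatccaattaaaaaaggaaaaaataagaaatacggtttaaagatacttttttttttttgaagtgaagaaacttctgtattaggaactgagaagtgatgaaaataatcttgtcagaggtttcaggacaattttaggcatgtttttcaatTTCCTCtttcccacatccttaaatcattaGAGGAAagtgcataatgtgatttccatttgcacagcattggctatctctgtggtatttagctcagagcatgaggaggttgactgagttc
Clec4e: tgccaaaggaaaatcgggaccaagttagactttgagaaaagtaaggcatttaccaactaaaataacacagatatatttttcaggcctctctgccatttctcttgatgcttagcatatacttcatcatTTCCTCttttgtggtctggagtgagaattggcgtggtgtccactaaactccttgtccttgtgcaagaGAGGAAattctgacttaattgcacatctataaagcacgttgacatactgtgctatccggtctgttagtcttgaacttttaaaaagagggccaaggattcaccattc
A match of letters is a description of the window and not a bound site. Equally, letters missing from 9 short windows show no depletion, and variant or distant sites were not searched.

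The libraries held between 629030 and 1047021 reads, recovered as whole reads from the deposited values. A deposited value is a read count, with a small constant added, put on a common scale by the authors' normalisation between libraries, and 1 read was worth between 0.993 and 1.51 such units. The 10 receptors together took between 0.118% and 0.138% of the reads. Intervals from counts below cover counting error only, since several amplified reads can stem from 1 molecule. The targeted gene, Rxra, counted 20 and 28 WT reads against 33 and 77 under the Rxra-KO label, so it was not lower there (log2 fold change 0.99, adjusted p = 0.183). A count over the whole gene cannot show the loss of 1 floxed exon, and each direction below is given for the libraries as labelled.

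Cell type marker lists set the frame for a bulk sample, in which fewer cells of a type and less RNA per cell cannot be told apart. Of 10 LPM markers in the table, 7 were called lower under the Rxra-KO label, and the list's summed value ranged from 48670 to 50200 in WT and from 25326 to 27218 in Rxra-KO. One of them, Lyz2, is the locus that carries Cre in the Rxra-KO mice, so for it the allele and LPM content cannot be told apart. Without Lyz2, 6 of 9 were called lower and the sums were 35937 and 37080 against 18940 and 20988. Timd4, Vsig4 and Csf1r, also LPM markers, were not called (log2 differences -0.80, 0.12 and 0.36). Of 11 markers of small peritoneal macrophages (SPMs) and monocyte-derived cells, 6 were called higher (Ccr2, Irf4, Mrc1, Retnla, Fcrls and Cd209d) and 1 lower, with sums from 774 to 2778 and from 4494 to 6461. The study names these same 6 genes as higher from the same libraries. Their direction was thus known beforehand and is no separate evidence. Cx3cr1 and Itgax, also on the list, were not called (log2 differences -0.30 and -0.97). The MHC class II genes that define SPMs had negative log2 differences, with overlap of the groups for each. The study's gate takes cells low in MHC class II, which limits what these genes can show about SPMs. H2-Ab1 was called lower (366 and 2484 against 160 and 610 normalised units), and H2-Aa and Cd74 were not called (log2 differences -0.28 and -0.97). H2-Ab1 made up most of the sum in WT replicate 2, and without these 3 genes the sums were 388 and 137 in WT against 4317 and 5788. Both sums with genes removed were chosen after the values were seen. Among 7 monocyte markers only F13a1 was called (higher), with sums from 443 to 743 and from 2011 to 2711, while the defining marker Ly6c2 counted 5 and 0 WT reads against 1 and 0. Among 7 dendritic cell markers Cd209a was called (higher), with sums from 56.8 to 61.3 and from 108 to 131, and the defining markers Flt3 and Zbtb46 had at most 10 reads in any library. Cd2 was called higher among 4 T and NK cell markers. None of the neutrophil (4), B cell (4), mast cell (4), platelet (7) and mesothelial (4) markers in the table was called by limma. Adgre1, which encodes the sorting marker F4/80, is not analysed here.

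Against this frame, 3 of the 10 receptors were called different between the groups. A call required an adjusted p (limma, Benjamini-Hochberg over all 18364 genes) under 0.05 with a log2 fold change of 0.6 or more in either direction. In the libraries labelled Rxra-KO, Clec4b1 and Clec4n were higher, whereas Clec4e was lower. edgeR on the recovered reads called the same 3 receptors, among 2.43% of all genes. Over all genes 2.29% were called, 1.32% higher and 0.969% lower. The values of the groups did not overlap for 6 receptors, higher in Rxra-KO for Clec4a2, Clec4a3, Clec4b1 and Clec4n and lower for Clec4e and Clec1b, against 38.1% of all genes (18.8% higher and 19.3% lower). Since the receptors were chosen with earlier results of these data known, these counts describe them and are no test of the family. The median log2 fold change was 0.09 over the 10 receptors and 0.02 over all genes. Removing single libraries left between 1 and 2 receptors called, with only Clec4b1 called without WT replicate 1. The count over all genes was 421 with every library, 244 when Rxra-KO replicate 1 was removed and 236 when WT replicate 2 was.

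**Figure D1:**
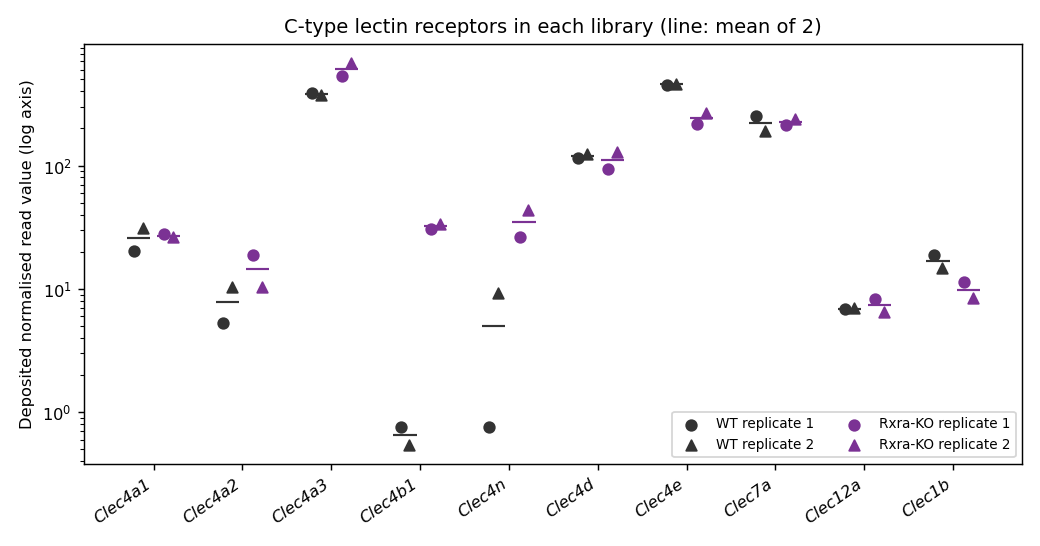
Normalised value of each receptor in each of the 4 libraries on a log axis, with WT and Rxra-KO libraries in separate colours. The points of Clec4b1 lie at 0.757 and 0.542 in WT and at 30.9 and 33.3 in Rxra-KO, while those of Clec4e lie at 452 and 462 and at 218 and 267.

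Among the receptors that signal through Fcer1g, Clec4b1 was without an assigned read in WT (0 and 0), against 20 and 33 reads under the Rxra-KO label. Of its 783 stretches of 31 bases, 143 also occur in Clec4a2, and reads from these may have been assigned to either gene. The deposited Clec4b1 values were 0.757 and 0.542 in WT, which stand for that constant alone, against 30.9 and 33.3 in Rxra-KO. The groups did not overlap, and both Rxra-KO values were far above anything seen in WT. Set against a floor of 3 reads per WT library, the mean level was at least 8.07-fold higher in Rxra-KO. This bound allows for no counting error in the Rxra-KO libraries. The fitted log2 fold change was 4.33 (SE 0.75, adjusted p = 5.10e-06), a value that depends on the pseudocount because WT had no reads. The call held without each library in turn, where the fitted value ran from 4.23 to 4.42. Clec4b1 made up 0 of the 270 and 380 reads of Clec4a1, Clec4a2, Clec4a3 and Clec4b1 in WT, which allows a share of up to 1.11% and 0.789% when the limit is set at 3 reads, or 1.36% and 0.966% as the upper bounds of the exact interval used for the other libraries. In Rxra-KO its share of those reads was 4.96% (95% exact Clopper-Pearson interval 3.06 to 7.56) and 4.4% (3.05 to 6.12).

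Clec4n, the alpha-mannan receptor Dectin-2, counted 0 and 8 WT reads against 17 and 43 Rxra-KO reads. Its normalised values were 0.757 and 9.22 in WT against 26.3 and 43.2 in Rxra-KO, so the WT libraries differed from each other but both stayed below the Rxra-KO libraries. The log2 fold change was 3.04 (SE 0.64, 95% interval 1.77 to 4.30, adjusted p = 0.000428). Its size rested on the WT library with no reads, and without WT replicate 1 it was 1.77 with an adjusted p of 0.0638, against 4.31 without WT replicate 2. Without Rxra-KO replicate 2 the adjusted p was 0.149, and DESeq2 on the recovered reads gave 2.85 with 0.113.

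Clec4e, the inducible glycolipid receptor Mincle, counted 298 and 425 WT reads against 144 and 268 Rxra-KO reads. After scaling, the WT libraries stood at 452 and 462 and the Rxra-KO libraries at 218 and 267. The WT pair lay close together and well above the other pair. The level fell by 0.92 on the log2 scale (SE 0.23, 95% interval -1.38 to -0.46, adjusted p = 0.00647), from 457 ± 6.82 to 242 ± 34.7 (SD, n = 2 each). With 1 library left out the fold change kept its sign, from -1.07 to -0.77, but the call was lost without Rxra-KO replicate 1 (adjusted p = 0.176), WT replicate 1 (0.092) or WT replicate 2 (0.146).

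Clec4d, which pairs with Clec4e in one complex, was at 116 and 124 in WT and at 94.1 and 129 in Rxra-KO. These groups overlapped, and the log2 difference was -0.12 with a 95% interval from -0.67 to 0.42 (adjusted p = 0.964). Reads of Clec4e per read of Clec4d were 3.92 and 3.73 in WT and 2.32 and 2.08 in Rxra-KO. This ratio was chosen after the values were seen and is given without a test. Summed as one feature, Clec4d, Clec4e and Clec4n stood at 569 and 595 in WT and at 338 and 438 in Rxra-KO, a log2 difference of -0.59 (SE 0.22, adjusted p = 0.205). Clec4n provided 0 and 1.46% of the reads of these 3 genes in WT and 7.62% and 9.77% in Rxra-KO.

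**Figure D2:**
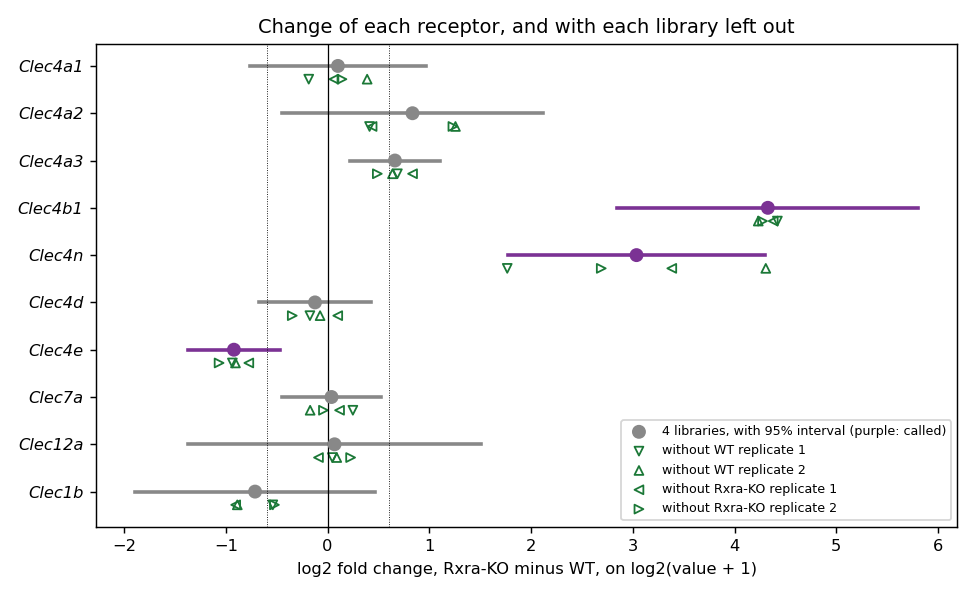
Log2 fold change of each receptor, Rxra-KO minus WT, on the log2(value + 1) scale, with its 95% interval from limma. The intervals of Clec4b1 (2.85 to 5.81), Clec4n (1.77 to 4.30) and Clec4a3 (0.22 to 1.10) lie above 0 and that of Clec4e (-1.38 to -0.46) below it, while the other 6 cross 0.

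Clec7a and Clec1b carry their own tyrosine motif. Clec7a, the beta-glucan receptor Dectin-1, was at 254 and 189 in WT and at 213 and 238 in Rxra-KO. Both Rxra-KO values lay between the WT values, and the log2 difference was 0.04 with a 95% interval from -0.44 to 0.52 (adjusted p = 0.988). Reads of Clec4e per read of Clec7a, again chosen after the values were seen, were 1.78 and 2.44 in WT and 1.02 and 1.12 in Rxra-KO. Clec1b, best known from platelets, counted 12 and 13 WT reads against 7 and 8 Rxra-KO reads, or 18.9 and 14.6 against 11.3 and 8.44 normalised units. The groups did not overlap, but the 95% interval of the log2 difference of -0.71 ran from -1.89 to 0.46 (adjusted p = 0.800). Sums over 7 platelet markers, all under 10 reads on average, were 38.6 and 22.2 in WT and 27.9 and 38.2 in Rxra-KO.

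Of the DCIR genes, Clec4a3 had the highest level, with 254 and 343 WT reads against 353 and 681 Rxra-KO reads. Its values were 385 and 373 in WT and 532 and 677 in Rxra-KO. Both Rxra-KO libraries lay above both WT libraries, and the 2 differed more from each other than the WT pair. The log2 difference was 0.66 (SE 0.22, 95% interval 0.22 to 1.10, unadjusted p = 0.00337), and it missed the threshold after adjustment over all genes (adjusted p = 0.111). It passed with voom on the recovered reads (0.68, adjusted p = 0.0417). The study lists Clec4a3, like Clec4b1 and Clec4n, among the genes significantly higher in its RXR-deficient LPMs. Its log2 fold change for Clec4a3 was the same, 0.68.

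Clec4a1 was at 20.4 and 30.9 in WT and at 27.9 and 26.3 in Rxra-KO, with overlapping groups and a log2 difference of 0.10 (95% interval -0.77 to 0.97, adjusted p = 0.984). Clec4a2, the inhibitory DCIR, counted 3 and 9 WT reads against 12 and 10 Rxra-KO reads. Its normalised values of 5.30 and 10.3 against 18.8 and 10.4 just failed to overlap, and the interval of the log2 difference of 0.83 ran from -0.45 to 2.12 (adjusted p = 0.771). At this depth a change of that size could not be told from none. Clec12a, an inhibitory receptor for uric acid crystals, had between 4 and 6 reads in every library, and its log2 difference of 0.07 had a 95% interval from -1.37 to 1.51 (adjusted p = 0.994). Because reads of the close relatives may be split between them, Clec4a1, Clec4a2, Clec4a3 and Clec4b1 were also summed. The sum was 412 and 414 in WT and 610 and 747 in Rxra-KO (log2 difference 0.71, SE 0.22, adjusted p = 0.0649).

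To compare receptors with each other, values were divided by coding length in kilobases. In WT, Clec4e came first with a mean of 712 per kilobase, ahead of Clec4a3 with 533, Clec7a with 303 and Clec4d with 183. The values of these 4 did not overlap between neighbours. Clec4a1 (34.9 per kilobase) and Clec1b (24.4) followed far below with libraries nearly touching, and then came Clec4a2 (9.93), Clec12a (8.65), Clec4n (7.96) and Clec4b1 (1.04). Neighbours among these last 4 overlapped or shared a value. In the libraries labelled Rxra-KO, Clec4a3 came first with a mean of 850 per kilobase, and Clec4e was second with 377, only just above Clec7a with 308. Clec4d had 170, Clec4n 55.5, Clec4b1 51.1, Clec4a1 36.9, Clec4a2 18.6, Clec1b 14.4 and Clec12a 9.20, with overlap between Clec4n and Clec4b1 and between Clec4a2 and Clec1b. Clec4n thus moved from position 9 to 5 and Clec4b1 from 10 to 6. With transcript length in place of coding length, an alternative added after the data were seen, Clec4a3 came first in WT too, so which of it and Clec4e led in WT depends on the length used. In Rxra-KO, Clec7a then stood at position 2 and Clec4e at 3, and Clec4n moved from 8 to 6 and Clec4b1 from 10 to 5, so the order within both of these pairs in Rxra-KO depends on the length as well. The authors quantified whole transcripts, so transcript length is the closer match to these values, though which transcripts were expressed was not examined.

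As a share of the receptors' own reads, which differ between libraries only in the mix, Clec4e took 36.0% and 37.9% in WT and 18.5% and 18.6% in Rxra-KO. Clec4a3 took 30.7% and 30.6% in WT and 45.3% and 47.2% in Rxra-KO. Clec7a took between 15.5% and 20.2% in all 4 libraries and Clec4d between 7.96% and 10.2%. The summed values of the 10 receptors were 1260 and 1220 in WT and 1180 and 1438 in Rxra-KO, with overlap of the groups.

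**Figure D3:**
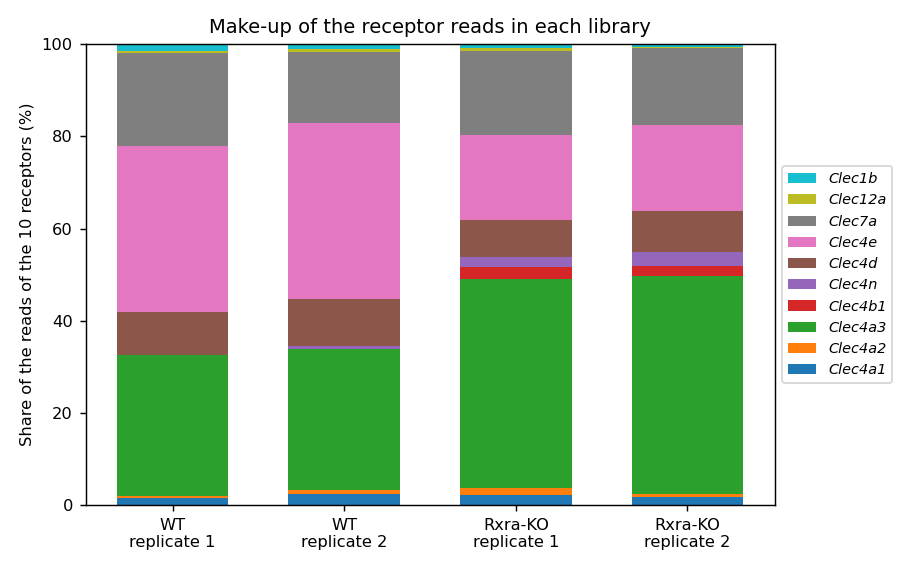
Share of the reads of the 10 receptors taken by each receptor, in percent, as 1 stacked bar per library. The Clec4e segment is 36.0% and 37.9% in the WT bars and 18.5% and 18.6% in the Rxra-KO bars, and the Clec4a3 segment is 30.7% and 30.6% against 45.3% and 47.2%.

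The lists of partners and targets held 77 genes, 67 of them in the table, and 5 were called, where 2.29% of all genes were. An unadjusted p under 0.05 was found for 18 of the 67 (26.9%) and for 10.1% of all genes, a description only, since the lists were chosen with earlier results known. Of the 6 other genes in the same chromosomal clusters, 4 were in the table and 0 were called by limma or edgeR. Clec4b2, the gene most like Clec4b1 when gaps are counted, had 0 and 1 WT reads against 0 and 10 Rxra-KO reads. The oxidised lipoprotein receptor Olr1 had 10 and 18 against 8 and 9. C-type lectins encoded elsewhere had 15 of 18 genes in the table and 3 called, all higher. The galactose-type receptor Clec10a counted 7 and 10 WT reads against 64 and 75 Rxra-KO reads (log2 fold change 2.80, adjusted p = 1.85e-08). Clec4g had 4 and 4 reads against 42 and 56 (3.17, adjusted p = 3.11e-07). The mannose receptor Mrc1, which is also on the SPM marker list, had 63 and 25 reads against 671 and 744 (4.04, adjusted p = 2.18e-34), and leaving out WT replicate 2 gave a log2 fold change of 3.16, leaving out WT replicate 1 one of 4.92.

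The signalling chain below the receptors gave no call. The adaptor Fcer1g, which Clec4b1, Clec4n, Clec4e and Clec4d need at the cell surface, counted 53 and 69 WT reads against 58 and 118 Rxra-KO reads (log2 difference 0.38, adjusted p = 0.769). The related adaptor Tyrobp had 41 and 42 against 14 and 33 (-0.97, adjusted p = 0.249). Syk, with 143 and 153 reads against 133 and 163, differed by -0.07 (adjusted p = 0.981), and 0 of the 12 kinases and early signalling genes were called by limma or edgeR. Card9 had 8 and 15 reads against 2 and 8 (-1.23, adjusted p = 0.560), and 0 of 12 genes of the CARD9 complex and NF-kB subunits were called by either tool. The phosphatases Ptpn6 and Inpp5d differed by -0.18 and -0.11 (adjusted p = 0.897 and 0.981), and neither they nor Ptpn11 were called.

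Among 7 partners at the membrane, Itgam was called. It encodes CD11b, the alpha chain of complement receptor 3, which also binds beta-glucan and was part of the sorting gate, and counted 2393 and 4179 WT reads against 933 and 2116 Rxra-KO reads (log2 fold change -1.24, adjusted p = 8.60e-06). Its beta chain Itgb2 had 1531 and 2039 reads against 1209 and 1551 (-0.44, adjusted p = 0.472). Of 15 genes that Dectin or Mincle signals induce, 12 were in the table and 1 was called, the transcription factor gene Egr2, with 25 and 10 reads against 165 and 58 (2.46, adjusted p = 4.74e-08). Without Rxra-KO replicate 1 its log2 fold change was 1.42 and the adjusted p 0.281, without WT replicate 2 it was 1.62 (adjusted p = 0.00228), leaving out WT replicate 1 or Rxra-KO replicate 2 gave 3.30 or 3.50, and DESeq2 did not call it (adjusted p = 0.508). Tnf had at most 1 read in any library and Cxcl1 at most 2.

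**Figure D4:**
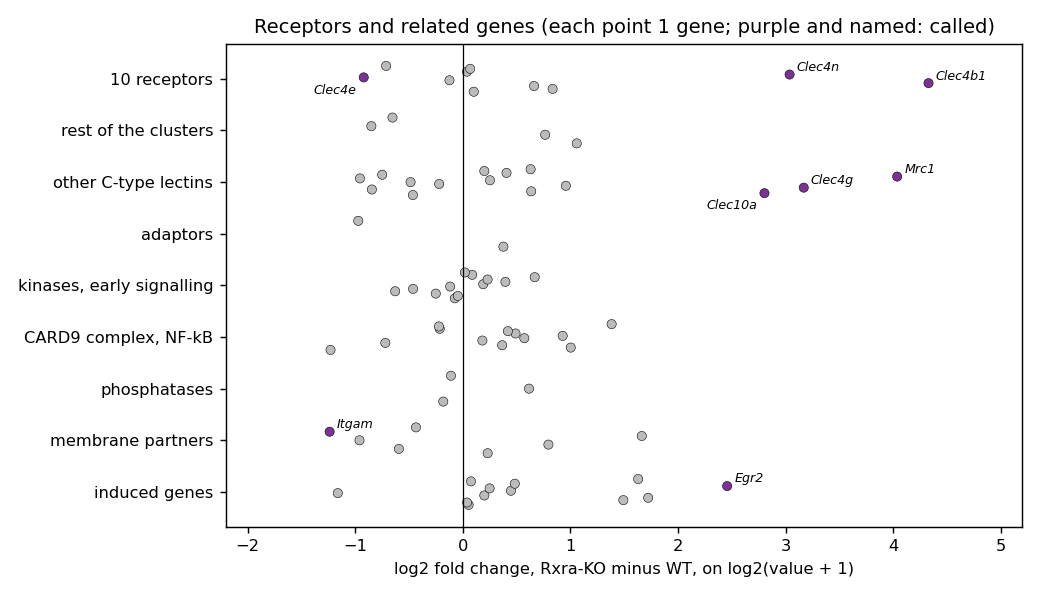
Log2 fold change, Rxra-KO minus WT on the log2(value + 1) scale, of the 10 receptors and of the genes of 8 related lists, 1 point per gene, with called genes named in purple. Mrc1 (4.04), Clec4g (3.17), Clec10a (2.80), Egr2 (2.46) and Itgam (-1.24) are the only called genes outside the receptors, and the adaptors, kinases, CARD9 complex and phosphatases have none.

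The receptors called higher moved in the same direction as some markers of other peritoneal cells, which the gate and the second sort were meant to remove. Clec4b1 and Clec4n, like Clec10a and Mrc1, were higher in the libraries where the SPM and monocyte-derived markers other than MHC class II genes summed to 4317 and 5788 in place of 388 and 137, and where F13a1 had 1622 and 1632 reads in place of 186 and 45. The MHC class II genes H2-Ab1, H2-Aa and Cd74 summed to 177 and 673 there in place of 387 and 2641, with overlap of the groups. Cd209a had 43 and 80 reads there in place of 14 and 13. Of the summed markers, Ccr2, Irf4, Mrc1, Retnla, Fcrls and Cd209d were already named as higher by the study from these libraries, as was Clec4b1. The study counts Clec4b1 itself among genes mostly restricted to SPMs. It also lists Clec4n, Clec10a, Clec4g and F13a1 as higher from these libraries, so none of these rises is separate evidence. Clec4e was lower where the LPM transcription factor gene Gata6 had 3 and 24 reads in place of 35 and 65. Not every LPM marker fell there, since Csf1r and Vsig4 had positive log2 differences (0.36 and 0.12, neither called). Neutrophils also express Clec4e and Clec4d, and the sums of the 4 neutrophil markers in the table were 114 and 99.8 in WT and 107 and 111 in Rxra-KO, which overlap. Most of each sum was Cxcr2 (105 and 89.5 in WT, 89.6 and 102 in Rxra-KO). The listed markers S100a8, S100a9, Ly6g, Elane and Camp had no values, so these sums cannot show the neutrophil content. The study reads the rise of SPM genes as a change of the LPMs themselves. It reports more accessible chromatin at Fcrls, Cd209d, Retnla, Mrc1 and Ccr2 in LPMs that lack both RXR alpha and beta. In bulk RNA, a change within LPMs and a part of other cells cannot be told apart. The part of these cell types in the receptor results was not tested.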

How the data were processed

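RNA from double-sorted LPMs was made into SMART-Seq v4 libraries. The authors quantified transcripts with kallisto 0.43.0, summed them to genes with tximport, filtered low genes and scaled the libraries by TMM. The submitters' notes name GRCh38, a human build, for these mouse data, so no coordinates of the files were used. The values the authors deposited are a normalised signal and not counts, so the test was limma 3.58.1 with a mean-variance trend (R 4.3.3) on log2(value + 1), 2 WT against 2 Rxra-KO libraries, two-sided, with Benjamini-Hochberg adjustment over all 18364 genes. Fold changes on this scale understate those of low genes. The planned filter (a value of 1 in 2 libraries) removed 0 genes. Whole reads were recovered from the value steps (100% within 0.001 read) and used for edgeR 4.0.16, voom and DESeq2 1.42.0 as alternatives, next to other scalings, pseudocounts and filters, a replicate block and the removal of each library. Scripts were tested on simulated data. All 10 receptors were named, and of the related lists every called gene plus Syk, Card9, Fcer1g, Tyrobp, Ptpn6 and Inpp5d. Clec4b2, Olr1, Ptpn11, Itgb2, Tnf, Cxcl1 and the marker genes were named after their values were seen. Receptors, lists and markers were chosen with earlier results of these data known. The study's methods state that samples which did not cluster with their group were left out. Sequences came from RefSeq (promoters) and GENCODE (coding sequences), read with Biopython 1.88.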

Additional observations from a re-analysis of the deposited data

How the results depend on the processing

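With 2 libraries a group the receptors' calls rest on a spread shared across genes. limma without the mean-variance trend called 0 of all genes, 0 of the related lists and 0 receptors (1579, 11 and 2 at an unadjusted p under 0.05), with Clec4b1 at 4.33 (adjusted p = 0.146), Clec4n at 3.04 (0.513) and Clec4e at -0.92 (0.602). DESeq2 called 235 of all genes (128 higher, 107 lower) in place of 421 and gave Clec4n as 2.85 (adjusted p = 0.113). Some low receptors have no adjusted p from DESeq2. Clec4a3 passed the threshold with voom (0.68, adjusted p = 0.0417) and with the replicate block (0.66, adjusted p = 0.0154). The replicate block called 540 genes, the 421 among them, and 4 receptors, and no other call among the receptors and the related lists changed. Same-numbered libraries hardly deviated together (correlation 0.0635 over 8850 genes), so the numbers were not taken as a pairing. In both groups, however, replicate 2 had more reads and higher H2-Ab1, H2-Aa and Cd74 values than replicate 1. Whether the numbers mark a shared batch was not tested. With single libraries left out, the calls ran from 236 to 377 over all genes, from 4 to 6 in the related lists and from 1 to 2 among the receptors. The log2 fold changes ran from 4.23 to 4.42 for Clec4b1, 1.77 to 4.31 for Clec4n, -1.07 to -0.77 for Clec4e and 0.49 to 0.84 for Clec4a3, and they crossed 0 for Clec4a1 (-0.19 to 0.39), Clec4d (-0.35 to 0.10), Clec7a (-0.17 to 0.25), Clec12a (-0.089 to 0.23), Inpp5d (-0.26 to 0.036), Ptpn6 (-0.42 to 0.060) and Syk (-0.26 to 0.12). Other than by construction (a filter that removed 0 genes tests nothing), the cause of these shifts was not tested. Receptors with under 10 reads on average, Clec4a2 and Clec12a, are limited by depth.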
